A study of Arabidopsis thaliana with 8 samples.

Results

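The genes described here are 96 Arabidopsis genes, each with 1 probe set, that the authors' deposited comparison tables list and annotate to the endomembrane system. They were chosen from the 733 probe sets of the 4 comparison tables, of which 692 carry 1 gene locus and 96 meet the rule. A member has the Gene Ontology cellular component endomembrane system and not chloroplast, no kinase activity and no role in the regulation of transcription. The rule also left out 10 loci by name, mostly lipid transfer proteins and expansins, and 6 of these would otherwise have met it. The whole value table holds 22746 probe sets.

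The endomembrane system is the set of connected membranes of the endoplasmic reticulum, the Golgi apparatus, the vacuole and the vesicles between them. Proteins with an N-terminal signal peptide enter it at the endoplasmic reticulum and are carried to the cell wall and the apoplast, to the vacuole or to a membrane. In shoots this route delivers wall enzymes, peroxidases, pathogenesis-related proteins and protease inhibitors. Brassinosteroids are plant steroid hormones that are perceived at the plasma membrane and are known for promoting cell expansion and for raising tolerance to heat.

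The study asked how a synthetic brassinosteroid changes shoot transcripts before, during and after heat. Seedlings of the Columbia ecotype grew for 21 days on medium with 1 µM 24-epibrassinolide (EBR) or, as the control, with 0.01% ethanol, and the tissue above the medium was collected. Both arms were sampled at 4 stages, namely without stress (0 h), after 1 h or 3 h at 43°C, and after 3 h at 43°C followed by 6 h of recovery at 22°C. Each of the 8 groups has 1 deposited sample, which the labels describe as 3 biological replicate arrays of the ATH1 type, with no fewer than 30 seedlings pooled for a treatment.

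The value table expresses each sample as a linear ratio to its own stage's control, and the log2 of EBR over control is the EBR effect used below, where 1 stands for a 2-fold difference. Values of single replicate arrays are not used here, so a single stage has no test, and the 4 stages served as the repeats. A gene is said to have risen or fallen when limma's moderated test of its 4 log2 ratios against 0 passed an adjusted p of 0.05 over all 22746 probe sets. That p measures agreement between stages and not between replicate shoots. The median log2 ratio over all probe sets lay between -0.042 and -0.0075 at the 4 stages. The 3' to 5' ratios of the array's control transcripts, a sign of RNA quality, were higher in the EBR sample for 4 of 4 control pairs at 1 h of heat, by log2 0.29 to 0.57, and lower for 4 of 4 at recovery, by log2 differences of -0.47 to -0.077. Their part in the results at those stages was not tested. The fixed leaf and root marker lists had 0 of 6 and 0 of 5 genes in the comparison tables, so the tissue could not be checked with them. Of 3 floral markers 1 was listed, the petal and stamen identity gene PI, which fell with a mean log2 ratio of -0.75, and its part in the results was not tested.

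The listing itself used the EBR effect. Per the file headers, listed probe sets had a corrected treatment p no higher than 0.05 in a 2-way ANOVA of the authors and a fold of 2 or more in at least 1 condition pair. The members just inside the fold limit were AT3G18280, with a smallest listed same-stage log2 change of 1.00, and COPT5, a copper transporter, with a largest log2 change against the 0 h control of 1.01. Of the members, 26 stand in all 3 same-stage tables, 15 in 2 of them, 27 in 1 and 28 in none, the last group having entered through the table against the 0 h control. That the members differ between the arms is therefore given as a description.

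The endomembrane annotation of all 96 members was inferred electronically. For 56 members it is the only cellular component. A further 13 carry the extracellular region, apoplast or cell wall, 12 are integral to a membrane, 4 carry the vacuole or lysosome and 2 a membrane anchor. The label does not hold equally well for every gene. All 7 glutaredoxins among the members also carry the cytoplasm, and glutaredoxins are small redox proteins best known from the cytosol and nucleus. AT3G06530 carries the nucleus and a ribonucleoprotein complex, with rRNA processing as its process. DAA1 also carries the nucleus, and SCPL51 the mitochondrion beside the extracellular region. All these genes met the rule, but nothing measured here places their proteins, or those of any other member, in the secretory route.

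Most members were higher with EBR. The mean log2 ratio over the 4 stages lay above 0 for 74 members and below 0 for 22, with a median of 0.54 against -0.030 over all probe sets. By the limma test 57 members rose, where 5.06% of all probe sets did, and 18 fell, where 5.91% of all did; 21 were not called. At 4 of 4 stages 66 members lay above 0, as did 12.3% of all probe sets, and 18 lay below 0, as did 20.3% of all. Since the tables were built on this contrast, these shares are not read against each other. In pooled shoots, a change in the number of cells of a type and a change in the RNA per cell cannot be told apart.

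The number that rose depended on the stages in the fit. Without the 0 h, 1 h or 3 h ratio, 36, 31 and 33 members rose, and without the recovery ratio 64 did. Of the 57 members that rose, 29 were called with any 1 stage left out, and 9 of the 18 that fell were. Without the ratio at 1 h, 11 members fell.

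Members were more often above 0 than the other listed genes. Of the 596 other probe sets with 1 locus in the same tables, 359 (60.2%) had a mean above 0, with a median of 0.31. The 54 non-members annotated as integral to a membrane were close to the members, with 41 above 0 and a median of 0.46. Of the 90 chloroplast genes, 37 lay above 0, with a median of -0.33, so their typical sign was the opposite one. All these genes share the same arrays and the same selection, and no test was made between the sets.

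At each single stage more members were 2-fold higher with EBR than 2-fold lower. At 0 h 29 members were at least 2-fold higher with EBR and 4 were lower by as much, where 0.95% and 0.123% of all probe sets were. After 1 h of heat the counts were 20 and 2, with 0.677% and 0.123% of all probe sets. After 3 h they were 13 and 3, with 0.818% and 0.154% of all. At recovery 11 members were higher and 7 lower, with 0.585% and 0.365% of all. The order of the stages depended on the measure, since at 1.5-fold 46, 43, 45 and 29 members were higher at the 4 stages, and by the authors' deposited log2 means 46, 30 and 37 were 2-fold higher at 0 h, 1 h and 3 h. Only 4 members were at least 2-fold higher at all 4 stages, namely TI1, AT1G76960, CORI3 and TBL38, and 2 were at least 2-fold lower at all 4, the glutaredoxins AT3G62950 and AT1G06830. The other end was larger, since 61 members reached 2-fold higher at no stage and 87 reached 2-fold lower at none.

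The highest mean belonged to OSM34, an osmotin-like protein of the pathogenesis-related family. Its log2 ratios were 1.37 at 0 h, 2.57 after 1 h and 2.66 after 3 h of heat, and 0.30 at recovery. The heat stages were thus the highest and recovery was close to the control. Its approximate control SD (log2, read from the shortfall of the control column) was 0.93 and 0.70 at the heat stages, the first being the highest of any member at 1 h, and 0.042 at recovery. Its mean of 1.73 ± 1.12 (SD over 4 stages) passed the test (limma, adjusted p = 0.023), but not with the 0 h, 1 h or 3 h ratio left out. TI1, a small cysteine-rich trypsin inhibitor, was steadier, with 1.68, 2.08, 1.88 and 1.16 at the 4 stages in the same order. It rose with a mean of 1.70 ± 0.40 (limma, adjusted p = 0.0014).

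AT1G76960, which has no stated function in the files, had log2 ratios of 1.98, 1.99, 1.36 and 1.02 (limma, adjusted p = 0.0024). CORI3, a cystine lyase known to be induced by jasmonate, had 2.01, 1.24, 1.5 and 1.49 (limma, adjusted p = 0.0013). CORI3 kept its level at recovery, whereas AT1G76960 was lowest there. DAA1, an AAA-type ATPase, had 2.05, 1.36, 1.52 and 1.00 (limma, adjusted p = 0.0023). The control arrays of DAA1 and TI1 were among the least even of the members, with approximate log2 SDs read from the control column of 0.65 to 1.11 for DAA1 and 0.68 to 0.93 for TI1 over the stages. The median member had an approximate control SD of 0.136, 0.154, 0.148 and 0.21 at the 4 stages, against 0.096 to 0.107 over all probe sets, and 19 members exceeded 0.5 at recovery.

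**Figure D1:**
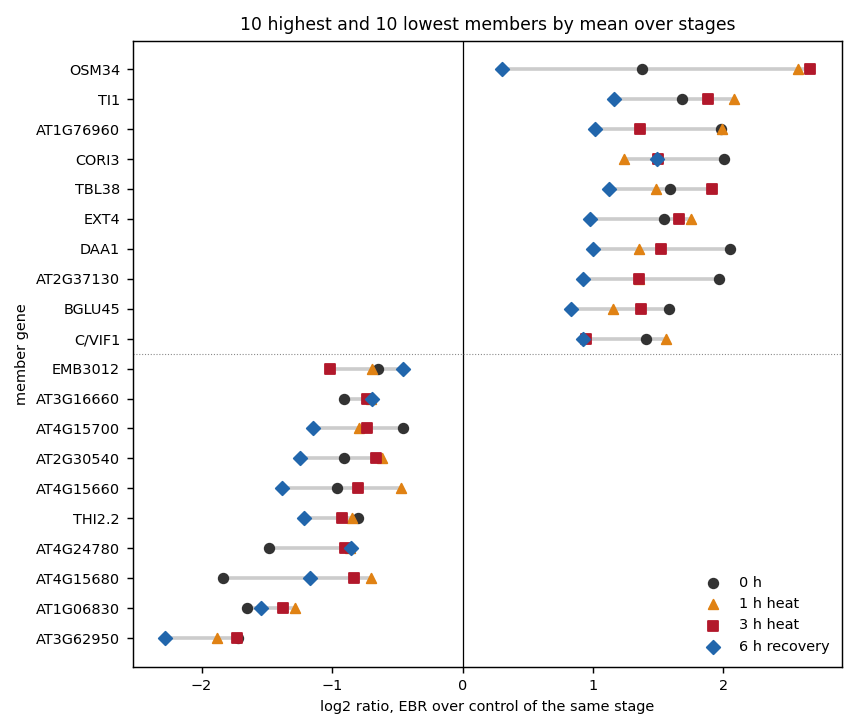
Log2 ratio of EBR over control of the same stage (horizontal axis) for the 10 members with the highest and the 10 with the lowest mean over the 4 stages (rows), 1 symbol per stage and a grey bar from the lowest to the highest stage. All 40 values of the upper 10 genes lie above 0 and all 40 of the lower 10 below 0, and OSM34 spans from 0.30 at recovery to 2.66 after 3 h of heat.

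By role, the wall group held genes of both directions. Of its 11 members 6 rose, 4 fell and 1 was not called, with a median mean of 0.46. TBL38, of the family that acetylates wall polysaccharides, had log2 ratios of 1.59, 1.49, 1.91 and 1.12, and EXT4, an extensin (a structural wall glycoprotein), had 1.55, 1.75, 1.66 and 0.98. Both lay near or above 2-fold at every stage, and both rose (limma, adjusted p = 0.0014 for TBL38 and 0.0015 for EXT4). BGLU45, a beta-glucosidase of the group that acts on monolignol glucosides, had 1.59, 1.15, 1.37 and 0.83 (limma, adjusted p = 0.0020). C/VIF1, an inhibitor of fructosidases that the annotation groups with pectinesterase inhibitors, had 1.41, 1.56, 0.94 and 0.92 (limma, adjusted p = 0.0021). The other 2 that rose were AT4G19420, a pectin acetylesterase of the annotation's carboxylesterases, with a mean of 0.79, and CWLP, a proline-rich wall protein, with 0.44 (not called without the 1 h or 3 h ratio).

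The wall genes that fell were AT4G24780, PME1, AT1G11820 and AT2G05790. AT4G24780, a pectate lyase, which cuts demethylated pectin, had log2 ratios of -1.48, -0.86, -0.90 and -0.85. It was furthest from the control at 0 h, and its mean was -1.03 ± 0.31 (limma, adjusted p = 0.0031). PME1, annotated as a pectinesterase inhibitor, had -0.54, -0.21, -0.46 and -0.38. AT1G11820 and AT2G05790, glycosyl hydrolases of the beta-glucanase type, had means of -0.42 and -0.50. The call of PME1 was lost without the 0 h or 3 h ratio, that of AT2G05790 without the 1 h ratio and that of AT1G11820 without any 1 of the 3 stages before recovery. None of the 24 genes of a fixed list of growth-related wall genes was among the 733 listed probe sets. The list included xyloglucan hydrolases, expansins, arabinogalactan proteins and cellulose synthases. The expansins that the rule left out by name are not on it, so the list does not cover them. Absence from the listing does not show that a gene was unchanged.

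Of 12 proteases and protease inhibitors, 9 rose, 1 fell and 2 were not called, with a median mean of 0.66. Besides TI1, the inhibitors were AT2G43530, a defensin-like relative encoded 1 gene away from TI1, and AT5G47550, a cystatin, which inhibits cysteine proteases. AT2G43530 had log2 ratios of 1.19, 0.94, 0.63 and 0.09, so it was highest at 0 h and near the control at recovery. AT5G47550 differed from it, with 0.59, 0.56, 0.57 and 0.82 and the highest value at recovery. Both rose (limma, adjusted p = 0.031 and 0.0033), and AT2G43530 was not called with any 1 of the 3 earlier stages left out.

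Among the proteases, BETA-VPE, a vacuolar processing enzyme, had log2 ratios of 0.75, 0.76, 0.82 and 0.53 (limma, adjusted p = 0.0023), a narrow range. The serine carboxypeptidase-like genes did not move together. scpl35 had 0.57, 0.82, 0.77 and 1.04 and rose (limma, adjusted p = 0.0027), and scpl42, with a mean of -0.31, fell, but not with any 1 of the 3 earlier stages left out. SCPL51 and scpl20, with means of 0.38 and 0.23, were not called. The aspartic proteases AT5G37540, AT1G62290 and AT1G49050 rose with means of 0.75, 0.69 and 0.43, and the subtilisin-like AT5G59130 rose with 0.47. Of these 4, AT1G62290 alone was called with any 1 stage left out; AT5G37540 was not called without the 0 h or 3 h ratio, nor AT1G49050 and AT5G59130 without any 1 of the 3 earlier stages.

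In the defence group 5 of 8 members rose, 1 fell and 2 were not called, with a median mean of 0.76. The chitin-directed enzymes are proteins that act on fungal walls. CHI, a chitinase, had log2 ratios of 1.36, 1.12, 0.90 and 1.06 and rose (limma, adjusted p = 0.0013). PR4, a chitin-binding pathogenesis-related protein, had 1.36, 1.57, 1.08 and 0.35 and rose (limma, adjusted p = 0.011), but was not called without the 1 h or 3 h ratio. HCHIB, a basic vacuolar chitinase, had 1.86, 0.93, 0.48 and 0.21, with a mean of 0.87 ± 0.72 (limma, adjusted p = 0.054). All 3 genes were over 2-fold higher at 0 h, and of them only CHI was still so at recovery.

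THI2.2, a thionin (a small toxic peptide), was lower with EBR at every stage, with -0.80, -0.85, -0.92 and -1.21 (limma, adjusted p = 0.0015). HR4, a homologue of a powdery mildew resistance gene, rose with a mean of 0.66, and was not called with any 1 of the 3 earlier stages left out. AT1G55210, a dirigent-like protein, had 0.50, 0.34, 0.43 and 1.13 and was highest at recovery (limma, adjusted p = 0.026; not called without the 0 h, 1 h or 3 h ratio). AT3G44400, a resistance protein of the TIR-NBS-LRR type, was not called at a mean of 0.39. A fixed list of 18 apoplastic defence genes had 3 genes in the tables, all of them members. OSM34 rose, THI2.2 fell and HCHIB was not called. HCHIB is annotated to the vacuole, so the list does not stand for the apoplast alone.

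Among the redox enzymes, all 3 peroxidases rose and no cytochrome P450 fell. AT2G37130, a class III peroxidase of the type that is secreted to the wall, had log2 ratios of 1.96, 1.35, 1.35 and 0.93 (limma, adjusted p = 0.0026). AT5G58390 had 1.54, 1.12, 0.35 and 0.36, so its difference was mainly that of the first stages (limma, adjusted p = 0.033; not called without the 0 h, 1 h or 3 h ratio). AT5G51890 had 0.22, 0.59, 0.23 and 0.63 (limma, adjusted p = 0.029, with the same dependence). Of the 5 cytochrome P450 genes 3 rose. CYP81D1 was the highest of them, with 1.44, 1.19, 1.24 and 0.90 (limma, adjusted p = 0.0014).

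CYP96A12 had log2 ratios of 0.87, 0.55, 0.58 and 0.88, and CYP708A3 had 0.88, 0.79, 0.77 and 0.02. Both rose (limma, adjusted p = 0.0034 and 0.032), the second not with any 1 of the 3 earlier stages left out. CYP72A8, with 1.10, 0.67, 0.67 and -0.04, missed the threshold (limma, adjusted p = 0.051). CYP710A2, a sterol C-22 desaturase, had 0.75, 0.62, 0.13 and 0.01 and was not called. In CYP708A3, CYP72A8 and CYP710A2 the EBR sample was at the control level at recovery.

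The 7 glutaredoxins were the largest group of members that fell, and all 7 fell. Their median mean was -0.91. AT3G62950 had log2 ratios of -1.72, -1.88, -1.73 and -2.28 and AT1G06830 had -1.65, -1.29, -1.38 and -1.55 (limma, adjusted p = 0.00030 for each). The 2 genes had the lowest means of all members. AT4G15680 had -1.84, -0.70, -0.83 and -1.17 (limma, adjusted p = 0.0086), and AT4G15660, 1 gene away from it, had -0.96, -0.47, -0.80 and -1.38 (limma, adjusted p = 0.0080). AT4G15680, AT4G15690 and AT4G15700 are next to each other on the chromosome and are close relatives, so their probe sets may share signal, and the count of 7 may hold fewer independent measurements.

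The transporters were mixed, with 3 that rose, 1 that fell and 2 not called among 6. UMAMIT29, of a family of amino acid exporters, had log2 ratios of 1.00, 0.69, 0.72 and 1.11 and rose (limma, adjusted p = 0.0022), while UMAMIT13 of the same family had -0.62, -0.55, -0.49 and -0.49 and fell (limma, adjusted p = 0.0037). The 2 relatives were on opposite sides of the control at all 4 stages. AT2G16660, of the major facilitator type, rose with a mean of 0.70. NHX2, a vacuolar sodium and potassium exchanger, had 0.52, 0.35, 0.39 and 0.13 and rose (limma, adjusted p = 0.031; not called without the 0 h, 1 h or 3 h ratio). UMAMIT30, with 0.63, 0.49, -0.10 and 0.08, and COPT5, with a mean of 0.24, were not called.

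Of the 3 lipid transfer and lipid binding genes, AT3G18280 had log2 ratios of 1.03, 0.94, 0.83 and 0.54 and rose (limma, adjusted p = 0.0028). AT5G01870 rose with 0.76, 1.08, 0.67 and 0.10 (limma, adjusted p = 0.028). DIR1, a lipid transfer protein needed for systemic acquired resistance, fell with -0.29, -0.45, -0.29 and -0.64 (limma, adjusted p = 0.017). The calls of AT5G01870 and DIR1 were lost with any 1 of the 3 earlier stages left out. AT3G18280 and DIR1 were therefore on opposite sides although both carry lipid transport in their annotation.

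Among 4 genes grouped by protein binding as their function, here called the RING finger and receptor group, 3 rose. AT1G63840, a RING finger protein annotated with a response to abscisic acid, had log2 ratios of 0.86, 1.13, 1.02 and 0.32 (limma, adjusted p = 0.0090; not called without the 1 h or 3 h ratio). BRH1, a RING-H2 protein named for its response to brassinosteroid, had 0.28, 0.35, 0.17 and 0.67, small values that were highest at recovery (limma, adjusted p = 0.039). AT1G33600, a leucine-rich repeat protein, had 0.24, 0.69, 0.48 and 0.20 (limma, adjusted p = 0.033). The last 2 calls were lost with any 1 of the 3 earlier stages left out. AT5G41400, a further RING finger protein, was not called at a mean of 0.36.

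Of the 14 members with another stated activity 8 rose, none fell and 6 were not called. ENODL19, an early nodulin-like copper protein, had log2 ratios of 1.04, 1.25, 0.82 and 0.83 (limma, adjusted p = 0.0015). KCS3, of the 3-ketoacyl-CoA synthase family that elongates fatty acids for wax, had 0.59, 0.68, 0.77 and 0.94 (limma, adjusted p = 0.0023). CuAO1, a copper amine oxidase, PYD2, a dihydropyrimidinase, and GLP5, a germin-like protein of the apoplast, rose with means of 0.59, 0.55 and 0.53. CuAO1 and PYD2 were not called with any 1 of the 3 earlier stages left out. AT4G29700, annotated with catalytic activity, had 1.5, 0.68, 0.29 and 0.26 and a mean of 0.68, and was not called (limma, adjusted p = 0.059). TAR2, an aminotransferase of auxin synthesis, was not called at a mean of -0.12.

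The 23 members of other or no stated function had 15 that rose, 3 that fell and 5 not called. AT4G30650, annotated with a response to cold, had log2 ratios of 1.12, 1.62, 0.89 and 1.08 (limma, adjusted p = 0.0021), and AT1G55265 had 1.09, 1.09, 0.91 and 0.64 (limma, adjusted p = 0.0020). AT5G19240, annotated as anchored to the plasma membrane, had 0.56, 1.36, 0.88 and 0.56 (limma, adjusted p = 0.0097; not called without the 3 h ratio). These genes were higher with EBR at all 4 stages. EMB3012, named for an embryo defect, had -0.64, -0.69, -1.01 and -0.46, and AT3G16660 had -0.91, -0.70, -0.73 and -0.70. Both fell (limma, adjusted p = 0.0063, not called without the 1 h ratio, and 0.0015), as did AT3G06530, with -0.63, -0.75, -0.91 and -0.02 (limma, adjusted p = 0.035; not called with any 1 of the 3 earlier stages left out).

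**Figure D2:**
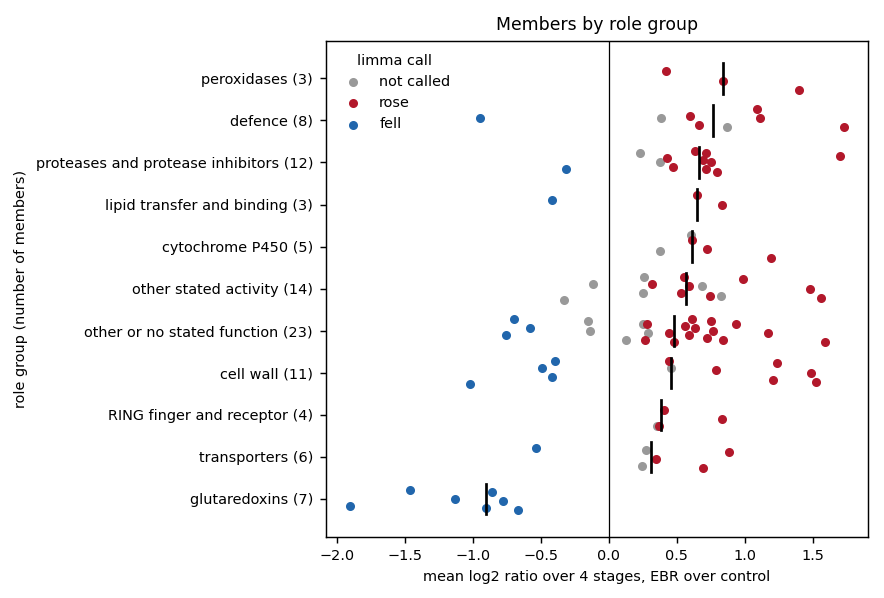
Mean log2 ratio of EBR over control over the 4 stages (horizontal axis) for each of the 96 members, arranged by role group (rows, with the number of members). Points are coloured by the limma call and black bars are group medians; the 7 glutaredoxins all lie below 0, with a median of -0.91, while the medians of the other 10 groups lie between 0.31 and 0.84.

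Members were also counted by their other annotated components. Of the 13 members that carry the extracellular region, apoplast or cell wall, 8 rose, 2 fell and 3 were not called, with a median mean of 0.53. Of the 4 with the vacuole or lysosome, 3 rose and none fell. The 56 with no other component had 38 that rose and 6 that fell, with a median of 0.59. The fixed list of 18 vacuolar proteins had 3 genes in the tables, and all 3 rose. They were the member BETA-VPE (mean 0.71) and the non-members ATBFRUCT1, a wall invertase (0.55), and PAP17, a purple acid phosphatase (1.31). With a wall invertase on it, the list does not stand for the vacuole alone. None of 17 genes of endoplasmic reticulum folding and the unfolded protein response was in the tables. Genes outside the tables could not be matched to a probe set here, so this does not show that they were unchanged.

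At recovery most members were on the same side of the control as before. Of the 74 members whose mean over the other 3 stages lay above 0, 69 were still above 0 at recovery, 55 were nearer to 0 and 19 farther from it, and the median went from 0.69 to 0.44. Of the 22 members below 0, 20 stayed below, with 11 nearer and 11 farther, and the medians were -0.62 and -0.65. Members were listed and split by the first 3 stages, so a recovery value nearer to 0 is given as a description only. Over all 96 members the median went from 0.53 to 0.31, and over the 596 other listed genes from 0.34 to 0.076. The recovery stage is in none of the comparison tables, and the sources used here do not say whether its arrays entered that ANOVA.

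No member passed the test of recovery against the other 3 stages. By limma at an adjusted p of 0.05, 0 members were higher and 0 lower at recovery, where 0.374% and 0.11% of all probe sets were. At an unadjusted p of 0.05, 9 members were higher and 31 lower, where 6% and 7.25% of all probe sets were. Members were listed by their EBR effect at the earlier stages, which the contrast also uses, so these shares are not read against each other. The contrast has 1 value at recovery, which was taken to vary like the other stages. On simulated ratios the same contrast called 0% of recovery changes of log2 0.5, 6% of log2 1 and 76% of log2 2. In that simulation, changes of log2 1 or less were thus mostly missed. It drew random probe sets of the whole array, with noise from their SD over the stages, so the rates for members may differ. The lack of calls does not show that recovery was like the other stages.

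The gene with the greatest loss was OSM34, whose recovery ratio was below the mean of the other stages by a log2 difference of -1.90 (limma, adjusted p = 0.12). PR4 followed with -0.99 (adjusted p = 0.083), HCHIB with -0.88, CYP72A8 with -0.85 and AT2G43530 with -0.83. These are 3 defence genes, a cytochrome P450 and a protease inhibitor. The differences, with or without a stage, use the stages by which members were listed and are a description only. Without the 0 h ratio the difference of OSM34 was -2.32 and passed (limma, adjusted p = 0.0012). Without the 3 h ratio those of PR4 (-1.11), AT2G43530 (-0.97) and AT1G76960 (-0.97) passed (limma, adjusted p = 0.040, 0.0497 and 0.045).

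In the other direction AT2G34810, an FAD-linked oxidoreductase of the berberine bridge enzyme type annotated with responses to wounding and jasmonate, had log2 ratios of 1.06, 0.40, 0.17 and 1.68. Its EBR effect was smallest after 3 h of heat and largest at recovery, by 1.13 over the other stages (limma, adjusted p = 0.16), and it passed only without the 0 h ratio, with 1.39 (limma, adjusted p = 0.019). The approximate control SD of AT2G34810 at recovery was 1.07, the highest of the members there, against 0.04 to 0.09 at the other stages. AT3G06530, AT1G55210 and AT3G49640 were higher at recovery by 0.74, 0.71 and 0.54. For AT3G06530 and AT3G49640, which were lower with EBR before, that was a return to the control, with recovery ratios of -0.02 and 0.07. The recovery ratio of each of the 7 glutaredoxins was below the mean of its other 3 stages. The log2 differences ran from -0.64 for AT4G15660 to -0.04 for AT4G15680, although AT4G15680 and AT1G06830 were lower still at 0 h. Approximate control SDs at recovery were 0.84 for AT1G06830, 0.81 for AT2G30540, 0.61 for AT4G15660 and 0.59 for AT3G62950. For AT4G15690, AT4G15700 and AT4G15680 they were 0.46, 0.32 and 0.09. The probe sets of these last genes may share signal, so the 7 may not be independent.

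**Figure D3:**
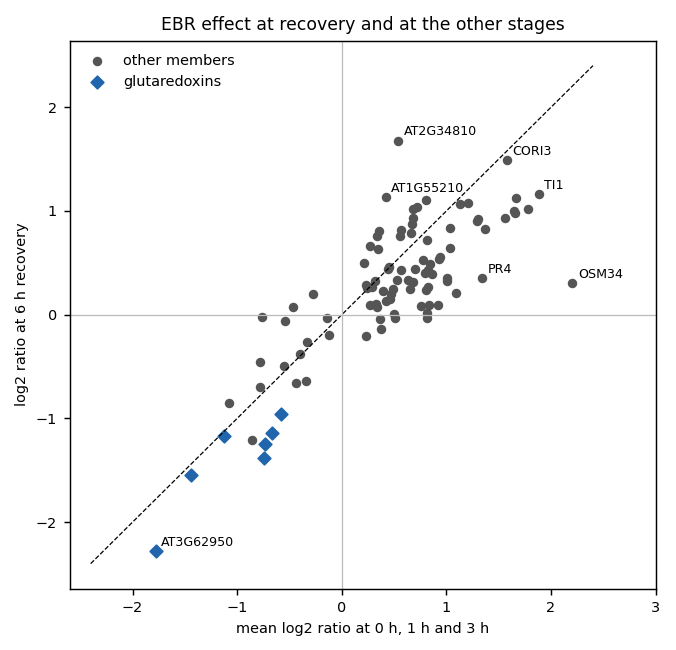
Log2 ratio of EBR over control at 6 h of recovery (vertical axis) against the mean log2 ratio at 0 h, 1 h and 3 h (horizontal axis) for the 96 members, with a dashed line of equal values. Of the members to the right of 0, 55 of 74 are nearer to 0 at recovery; OSM34 lies farthest below the line, AT2G34810 farthest above it, and the glutaredoxins (diamonds) on or below it.

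After heat alone, more members were lower than higher in control shoots, in the authors' deposited table that sets each condition against unstressed control shoots. The table holds log2 condition means for 95 of the 96 members, without GLP5, and 708 probe sets in all, gives no error and has no recovery stage. In it, 10 members were higher by 2-fold or more and 27 lower after 1 h in control shoots, where 11.3% and 20.5% of its probe sets were. After 3 h the counts were 7 and 33, with 10.2% and 22.3% of the table. The median log2 change of the members was -0.52 and -0.58 at the 2 times, against -0.20 and -0.20 over the table.

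In EBR shoots, set against unstressed EBR shoots, the authors' deposited table had 8 members at least 2-fold higher and 32 lower after 1 h, with 11% and 24.3% of the table. After 3 h the counts were 12 and 36, with 15% and 27% of the table. The members' medians were -0.59 and -0.64, against -0.28 and -0.33 over the table. Both arms thus had the same order of counts.

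The highest heat change of a member in the authors' deposited table was that of AT1G67360, of the rubber elongation factor family whose plant members coat lipid droplets. Its log2 change was 7.40 after 1 h and 7.25 after 3 h in control shoots and 6.12 and 6.04 in EBR shoots. The lower change in EBR shoots went with a higher unstressed mean, since in the authors' deposited table its EBR effect was 1.36 at 0 h, 0.09 after 1 h and 0.16 after 3 h. CYP72A8 had heat changes of 3.68 and 3.66 in control shoots and 2.77 and 2.97 in EBR shoots, and NHX2 had 2.30 and 2.26 against 1.6 and 1.75, again per the authors' deposited table. These 3 genes were already higher with EBR before heat and had smaller heat changes in the EBR arm, a difference that was not tested. Both statements use the same 0 h means, so they are not separate observations. The value table had smaller EBR effects at 0 h. At 0 h, 1 h and 3 h it had 0.49, 0.13 and 0.09 for AT1G67360 and 1.10, 0.67 and 0.67 for CYP72A8. For NHX2 it had 0.52, 0.35 and 0.39.

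Most glutaredoxins were higher after heat, in control shoots mainly a group of neighbouring genes, while all were lower with EBR. In the authors' deposited table AT4G15680 had heat changes of 2.88 after 1 h and 3.05 after 3 h in control shoots and 4.14 and 4.32 in EBR shoots. Its EBR effect there was -2.27 without stress and -1.01 and -0.996 in heat, so the gap to the control was smaller in heat. Of the 7 glutaredoxins 6 were above 0 after 3 h in control shoots in the authors' deposited table, with a median of 0.90. The exception was AT1G06830, at -0.28. The neighbouring genes AT4G15660, AT4G15680, AT4G15690 and AT4G15700 had 0.90, 3.05, 1.72 and 1.25. Signal may be shared by the probe sets of AT4G15680, AT4G15690 and AT4G15700. Outside this group AT3G62950 and AT2G30540 had only 0.36 and 0.22.

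At the lower end of the authors' deposited table stood AT1G33600, with -3.04 after 1 h and -2.94 after 3 h in control shoots and -2.20 and -2.23 in EBR shoots. BRH1 had -2.97 and -2.80 against -2.86 and -3.21, PR4 had -2.69 and -2.77 against -2.57 and -3.21, and PME1 had -2.43 and -2.39 against -1.94 and -2.11 in the authors' deposited table. A signalling, a defence and a wall gene were thus among the lowest there, and in both arms. In EBR shoots after 3 h, the authors' deposited table had the lowest heat changes for the members AT5G58390, a peroxidase, and HCHIB. They were -3.47 and -3.41, against -1.62 and -0.73 in control shoots. Mean intensities of the 2 genes in unstressed controls were 21.0 and 13.7, and the part of low signal was not tested. After 3 h of heat the EBR effect of HCHIB was 0.11 in the authors' deposited table and 0.48 in the value table.

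**Figure D4:**
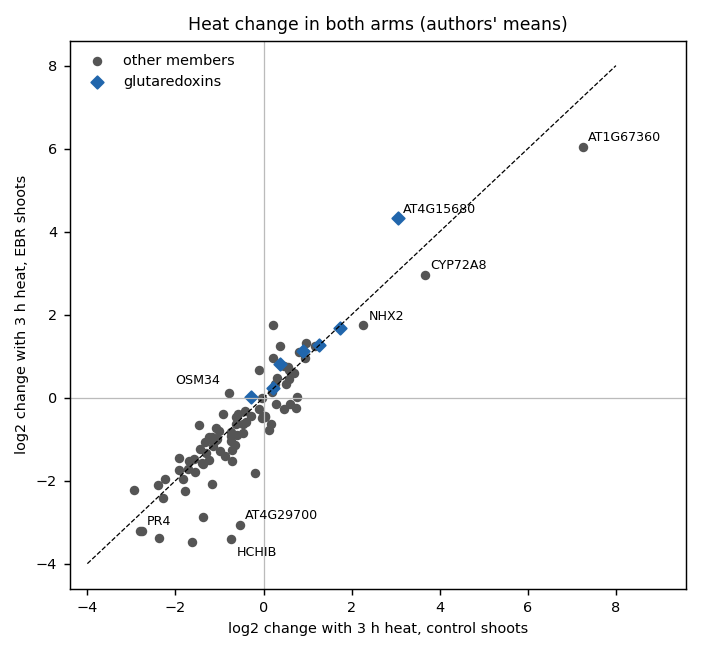
Log2 change after 3 h of heat in EBR shoots against unstressed EBR shoots (vertical axis) and in control shoots against unstressed control shoots (horizontal axis), from the authors' condition means, for 95 members, with a dashed line of equal change. AT1G67360 (7.25 and 6.04 in control and EBR shoots) lies farthest up, and HCHIB and AT4G29700 lie well below the line, with changes of -3.41 and -3.06 in EBR shoots against -0.73 and -0.54 in control shoots.

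HCHIB belongs to a small set whose EBR effect was near 0 after 3 h of heat in the authors' deposited table. There 46 members were at least 2-fold higher with EBR at 0 h, of which 27 were still so after 3 h, 19 were not, and 5 were within log2 0.2 of the control. The 5 were HCHIB (2.79, 1.17 and 0.11 at 0 h, 1 h and 3 h), AT4G29700 (2.53, 0.21 and 0.01), AT1G67330 (1.65, 0.54 and 0.03), AT1G55210 (1.57, 0.65 and 0.08) and AT1G67360 (1.36, 0.09 and 0.16). They were named after their values were seen. In the same order, their mean intensities in unstressed controls were 13.7, 10.4, 4.69, 17.1 and 51.8. The median of the members listed at 0 h was 63.2, and the part of low signal was not tested. The roles of the 5 genes differ. AT1G67360 was higher after heat in both arms in the authors' deposited table. The other 4 were at least 2-fold lower there after 3 h in EBR shoots, from -1.80 for AT1G67330 to -3.41 for HCHIB. Since the 46 were picked by their 0 h value, a smaller value after 3 h is given as a description only. The heat change in EBR shoots is taken from the same 0 h EBR mean, so it is not a separate observation.

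The value table gave smaller EBR effects for the same genes. For HCHIB it had 1.86, 0.93 and 0.48 at 0 h, 1 h and 3 h, and for AT1G55210 it had 0.50, 0.34 and 0.43, so AT1G55210 kept most of its smaller difference there. Across the 95 members the 2 sources had the same sign for 94, 92 and 93 members at 0 h, 1 h and 3 h. The median size of the log2 difference was 1.13, 0.89 and 0.93 in the authors' deposited table and 0.66, 0.68 and 0.67 in the value table, and it was larger in the former for 88, 83 and 82 members. Of the 54, 38 and 43 members listed in the authors' deposited same-stage tables, 33, 22 and 16 were at least 2-fold apart in the value table. The sources used here do not say how the authors combined and scaled the arrays for either.

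**Figure D5:**
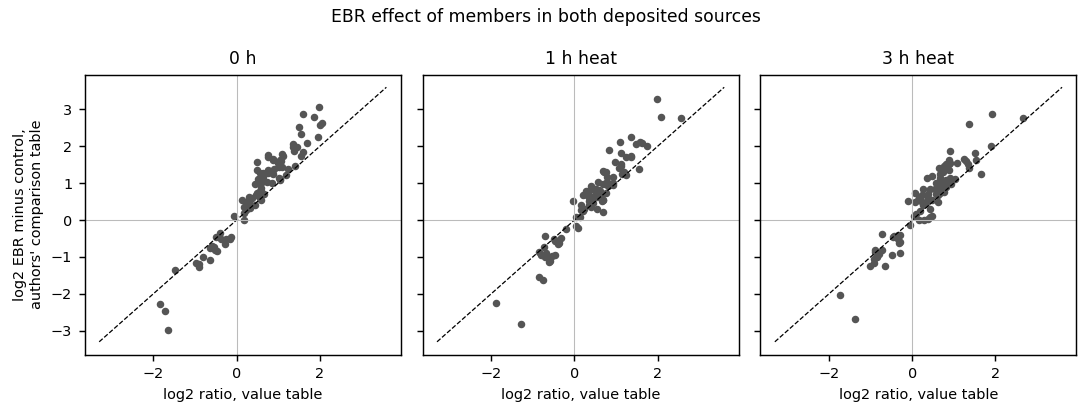
Log2 difference between EBR and control in the authors' comparison table (vertical axes) against the log2 ratio in the value table (horizontal axes) at 0 h, after 1 h and after 3 h of heat, for 95 members, with dashed lines of equal values. Signs are shared by 94, 92 and 93 members, and most points lie farther from 0 on the vertical than on the horizontal axis.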

How the data were processed

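Biotin-labelled RNA from shoots was hybridised to the ATH1 array, as the labels state. MAS5 and GCRMA are named, with neither version nor role, in the submitters' processing notes. The deposited value table holds linear ratios; since its control columns never exceed 1 and their medians are close to 1, the ratio was read as relative to the control of the same stage, an inference from the values. The approximate control SD was computed from the shortfall of the control column from 1, taken as a geometric over an arithmetic mean of 3 arrays, which is an inference too. Per the file headers, the authors' 4 deposited comparison tables list normalized log2 condition means, and the 3 same-stage tables also mean intensity. In the table against the 0 h control, the log2 of each listed fold matched the size of the difference of the log2 means within 5.2e-07. The same-stage folds were not checked in this way. All these values are authors' means with no error.

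From these a log2 ratio of EBR to control was computed per stage. Means over 4 stages were tested against 0, and recovery against the other 3 stages, with limma 3.58.1 in R 4.3.3 (moderated variances, Benjamini-Hochberg adjustment over 22746 probe sets), after a check on simulated data. Depth has no counterpart on arrays; with 1 value per group and stage, the number of stages limits the precision. Symbols came from the TAIR10.1 reference table, which matched 692 of 692 loci; coordinates are left out because no build is named in the files.

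The members, role groups and gene lists were chosen with earlier results of these data known. Role groups use words of the Gene Ontology columns, the gene names and the protein domain entries where given. Oxidoreductases were split into glutaredoxins, peroxidases and cytochrome P450. The RING finger and receptor group holds members with protein binding as function that matched no earlier group, so its name was not a criterion. The genes named are the 10 highest and 10 lowest means, 5 each way for recovery and for heat at 1 h and 3 h in control shoots, the 5 widest ranges over stages, up to 4 per role group and the members of fixed lists, which gave 57 members; others are named to account for a group's counts, after their values were seen.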

Additional observations from a re-analysis of the deposited data

Results flagged for a closer look

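In 3 members the authors' deposited table had heat changes of opposite sign in control and EBR shoots at both times, each arm set against its own unstressed shoots. The differences were not tested, since the means carry no error. OSM34, an osmotin-like defence protein, had log2 changes of -0.26 after 1 h and -0.77 after 3 h in control shoots and 0.63 and 0.12 in EBR shoots. AT5G19240, annotated as membrane-anchored, had -0.17 and -0.10 in control shoots and 0.95 and 0.66 in EBR shoots. UMAMIT30, of an amino acid exporter family, went the other way, with 0.24 and 0.61 in control shoots and -0.20 and -0.16 in EBR shoots.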

How the results depend on the processing

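The counts of members that rose and fell (57 and 18) stayed within 1.5 times under median centring, quantile normalization, robust variances, the EBR column alone and the 2 wider member rules. Leaving out 1 stage gave 31 to 64 members that rose and 11 to 19 that fell. For recovery, leaving out 1 of the 3 earlier stages gave 0 to 1 members higher and 0 to 3 lower. At 1.5-fold in place of 2-fold, 46, 43, 45 and 29 members were higher with EBR at 0 h, 1 h, 3 h and recovery, and 12 were lower at each. By the authors' log2 means, 46 were higher and 8 lower at 0 h, 7 were lower at 1 h, and 37 were higher and 6 lower at 3 h. For heat in control shoots, a 1.5-fold threshold gave 47 lower at 1 h and 16 higher at 3 h. For heat in EBR shoots it gave 17 and 20 higher at 1 h and 3 h. The mean intensities, present for both conditions in only 31 members, gave 3 higher and 8 lower at 1 h and 1 higher and 7 lower at 3 h in control shoots, and 1 and 9, then 0 and 8, in EBR shoots. The 67 members with a highest mean at or above the table's median had 5 higher at 1 h and 3 higher at 3 h in control shoots. Without the 7 glutaredoxins, an alternative chosen after seeing the data, 4 were higher at 3 h in control shoots and 4 at 1 h in EBR shoots. The smaller counts come with fewer members, and the cause of the other shifts was not tested. No result changed its direction. Without the members whose approximate control SD exceeded 0.5 at any stage, also chosen after seeing the data, 74 were left, of which 42 rose and 14 fell.

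No paired analysis was possible because the labels give the groups no shared replicate numbers; the arms are matched by stage already, in the ratios themselves. Protein and promoter sequence features, planned with a hydrophobicity window, were not run here. Each stage has 1 value per arm, so agreement between stages stands in for replicates, and batches of plants were not separated from EBR. Mean intensities ran from 4.69 to 980 in unstressed controls over the members listed at 0 h, and dim probe sets have less certain ratios.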

Other observations

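Members with at most 4 genes between them on a chromosome had means of the same sign in 7 of 7 pairs, with different sizes. Since 74 of all 96 members had a mean above 0, shared signs are common among members in any case. The count is a description only. TI1 and AT2G43530, with 1 gene between them, had mean log2 ratios of 1.70 and 0.71, and CHI, 4 genes further on, had 1.11, so the 3 were higher with EBR. The family members UMAMIT29 and UMAMIT30, with 2 genes between them, had 0.88 and 0.27, and only the first passed limma's test. ENODL19 and scpl20, also 2 genes apart, had 0.98 and 0.23. Among the neighbouring glutaredoxins, AT4G15660, AT4G15680, AT4G15690 and AT4G15700 had -0.91, -1.14, -0.67 and -0.78. Probe sets of AT4G15680, AT4G15690 and AT4G15700 may share signal, and all 7 glutaredoxins among the members fell. No test of neighbourhood was made.

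AT2G38600, an acid phosphatase by annotation, was the member with the most stage-specific pattern after 3 h of heat. Its log2 ratios were 0.19, 0.03, 0.90 and -0.13 at 0 h, 1 h, 3 h and recovery, and it was not called. In the authors' deposited table its heat change after 3 h was 0.22 in control shoots and 1.75 in EBR shoots. Its mean intensity after 3 h was 7.96 in control shoots and 23.4 in EBR shoots. The median control intensity of the members listed at 3 h was 54.1. AT2G38600 was picked out after its values were seen.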
